A study of Mus musculus with 8 samples.

Results

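Integrins, cadherins, protocadherins, claudins and the other proteins of cell junctions were examined in mouse cardiac endothelial cells (MCECs), an established cell line, with and without editing of *Hdac3*. The genes were taken by name from a table of 8278 genes: protein-coding genes whose symbol begins as an integrin subunit, cadherin, protocadherin, claudin, tight junction protein, junctional adhesion molecule, connexin, desmosomal protein, nectin, or one of a few adhesion receptors of the immunoglobulin superfamily. The name rule found 49 genes among the 7976 protein-coding ones. The *Hdac3* KO group was 4 samples of MCECs transduced with lentivirus carrying Cas9 and a guide RNA to *Hdac3*, and the EV group was 4 samples transduced with the empty vector lentivirus, so both groups share the transduction. Whether the KO line is 1 clone is not given in the sources used here. The study's reporting summary speaks of technical replicates for in vitro work in general and of biological replicates for the sample sizes in its legends, and does not say whether these samples came from separate cultures. The p-values thus measure the spread between these samples, which may be technical. The comparison addresses how gene expression in these cells differs once *Hdac3*, which encodes a histone deacetylase, is edited. Libraries held 15775327 to 22255684 reads, and gene positions are in the mm10 build.

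Integrins are pairs of an alpha and a beta subunit that bind cells to the extracellular matrix, and the pairing sets the ligand. Cadherins join cells to cells through calcium-dependent binding and are tied to actin by catenins, while desmosomal cadherins are tied to intermediate filaments by plakophilins and desmoplakin. Claudins, junctional adhesion molecules and their zonula occludens scaffolds form the tight junction that seals endothelium, connexins form gap junctions, and adhesion receptors such as *Vcam1* and *Icam1* capture leukocytes at the vessel wall.

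The table lists only genes that the authors' comparison of the same libraries called, so a gene of these families that is not in it was not analysed here. *Hdac3* had normalized counts, that is counts divided by the relative library size, of 1943, 2077, 2064 and 2147 in the EV libraries (replicates 1 to 4, an order kept below) and of 1558, 1465, 1496 and 1531 in the KO libraries. The KO libraries thus held 73.5% of the EV level (log2 fold change -0.45, SE 0.035), which agrees in direction with the labels. Of the markers of the labelled cell type, 6 of 15 endothelial ones were in the table, and *Pecam1* had between 0 and 9 reads per library. *Cdh5*, *Cldn5*, *Tie1*, *Erg*, *Emcn*, *Esam*, *Vwf*, *Nos3* and *Robo4* were not analysed here, so their levels are not known. The sums that follow cover listed markers only and do not rank cell types by expression. The 6 endothelial markers together reached 26.2 to 28.3 FPKM (read counts per gene length and library total) in EV and 20.9 to 22.4 FPKM in KO libraries, most of it *Eng*. The 5 mesenchymal markers present, among them *Col1a1*, *Col3a1* and *Dcn*, summed to 1495 to 1538 FPKM in EV and 1147 to 1170 FPKM in KO libraries. The 4 mural markers summed to 29.7 to 35.9 FPKM in EV and 6.64 to 8.05 FPKM in KO libraries. The 3 keratins of the epithelial list summed to 298 to 312 FPKM in EV and 342 to 355 FPKM in KO libraries. Nearly all of this was *Krt19*, with means of 304 FPKM in EV and 344 FPKM in KO MCECs. *Cd68*, the one leukocyte marker present, was at 5.36 to 5.89 FPKM in EV and 11.1 to 12.5 FPKM in KO libraries, and *Myl7*, the one cardiomyocyte marker, at 4.83 to 6.54 and 1.55 to 1.84 FPKM. The part of these shifts in the results was not tested, and in bulk RNA fewer cells of a type and less RNA per cell cannot be told apart.

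All 49 genes passed the cut-off of 0.01 on the adjusted p of edgeR's quasi-likelihood test, 34 of them lower and 15 higher in *Hdac3* KO MCECs. Among all 8278 listed genes 49.6% were called lower and 47.1% higher, and since the table was selected on this contrast nothing is read from the number called. The lower genes make up 69.4% of the 49 and 49.6% of all listed genes, a difference that was not tested. The median log2 fold change was -0.55, beside 0.06 over all listed genes. Changes of more than 1 on the log2 scale were seen in 16 genes (32.7%), 13 lower and 3 higher, beside 12.8% of the table. Of these 16, 8 are protocadherin genes of a cluster beside *Hdac3*, and among the 40 genes outside the protocadherin clusters 8 changed by more than 1, 5 lower and 3 higher. The 8 KO and EV libraries did not overlap for 45 of the 49 genes, beside 91.1% of all listed genes. For those 45 the two-sided exact permutation test gives 0.0286, the smallest p that the 70 arrangements of 4 against 4 allow. Scaling by library totals without TMM moves the median of all genes by -0.12, and the increases of *Itga3* and *F11r*, which are smaller than that shift, turn into small decreases under it. With that scaling 4120 of all listed genes were called lower and 2671 higher, in place of 4107 and 3895.

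**Figure D1:**
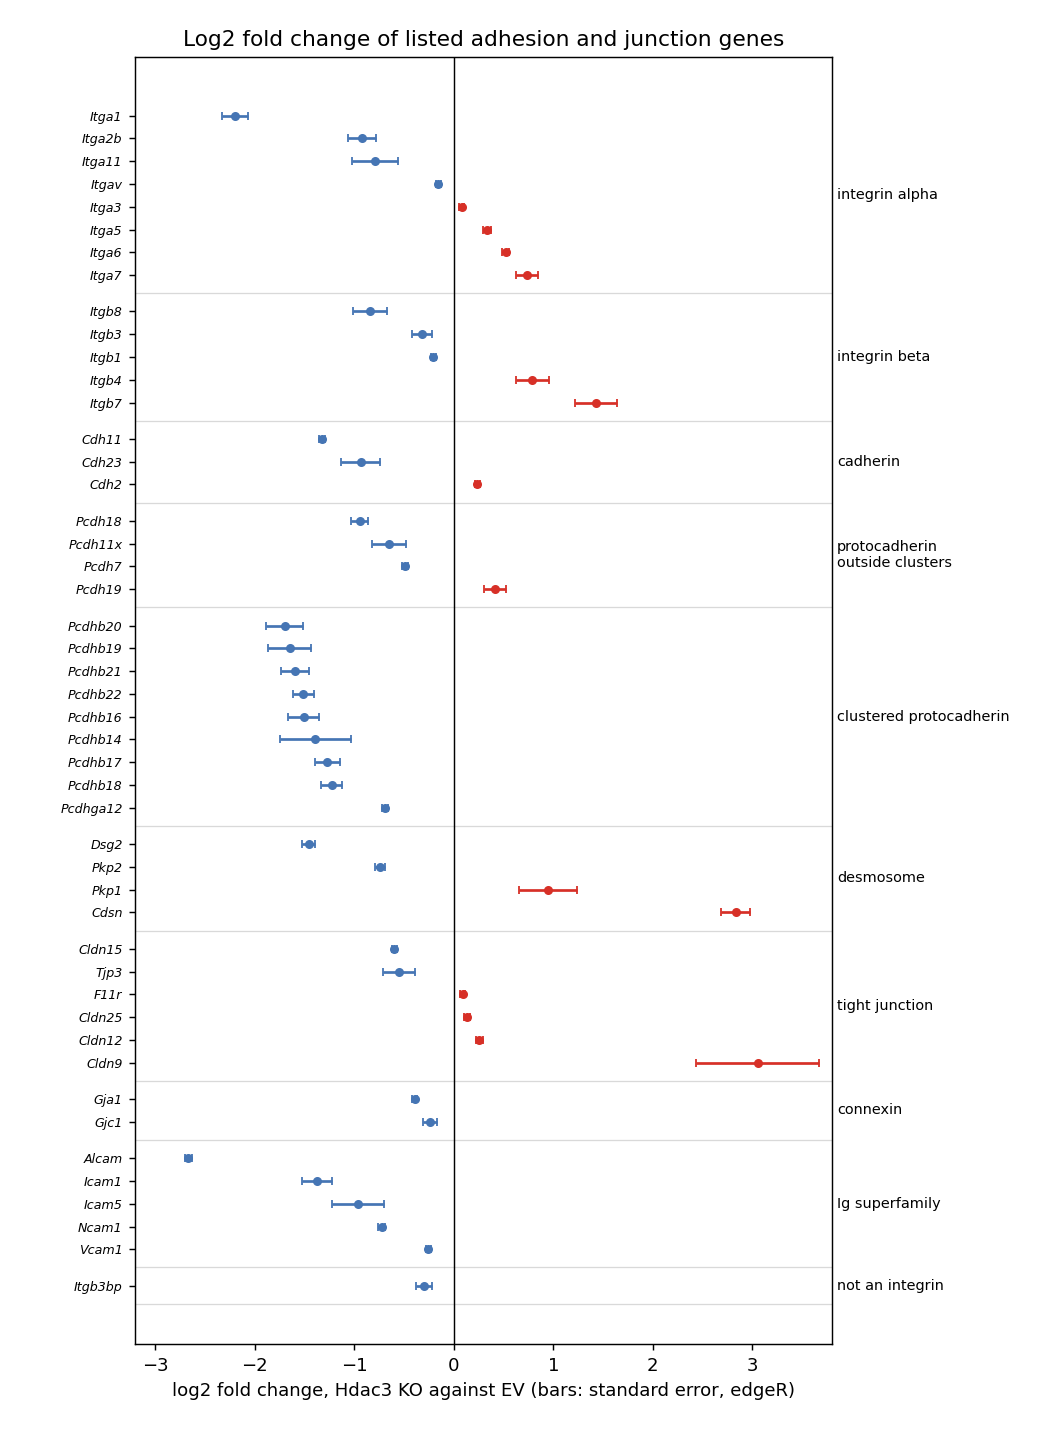
Log2 fold change of 47 of the 49 genes in *Hdac3* KO against EV MCECs (x axis, log2 scale; bars are the standard error of the edgeR fit, 4 libraries per group), grouped by family and coloured blue where lower and red where higher. The 9 clustered protocadherin rows and the 5 genes grouped as immunoglobulin superfamily receptors all lie left of 0. The integrins lie on both sides, and *Alcam* at -2.67 and *Cldn9* at 3.05 are the ends of the range.

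Promoter sequence is shown for the gene with the lowest log2 fold change (*Alcam*), for the most increased gene that averaged 100 or more in a group (*Cdsn*), and for the lowest and highest integrin subunits (*Itga1* and *Itgb7*). Each runs 5′ to 3′ on the gene's strand, from 250 bases before to 50 bases after the RefSeq start in GRCm38.p6, and capitals mark CG dinucleotides. For *Cdsn* the start at the deposited gene start is shown, 1 of its 2 RefSeq starts.
Alcam (chr16:52453032-52453331, minus strand): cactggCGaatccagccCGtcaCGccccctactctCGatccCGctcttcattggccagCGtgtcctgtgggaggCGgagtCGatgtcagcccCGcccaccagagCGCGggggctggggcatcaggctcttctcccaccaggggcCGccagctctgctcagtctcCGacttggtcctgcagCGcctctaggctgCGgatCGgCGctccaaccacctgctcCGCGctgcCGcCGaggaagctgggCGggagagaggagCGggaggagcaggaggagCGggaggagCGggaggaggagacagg
Itga1 (chr13:115101915-115102214, minus strand): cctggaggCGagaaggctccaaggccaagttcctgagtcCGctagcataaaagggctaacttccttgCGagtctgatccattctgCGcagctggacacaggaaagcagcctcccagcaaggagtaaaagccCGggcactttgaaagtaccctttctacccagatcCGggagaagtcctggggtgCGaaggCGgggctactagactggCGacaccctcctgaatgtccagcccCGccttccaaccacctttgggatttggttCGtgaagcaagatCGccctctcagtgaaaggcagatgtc
Itgb7 (chr15:102231886-102232185, minus strand): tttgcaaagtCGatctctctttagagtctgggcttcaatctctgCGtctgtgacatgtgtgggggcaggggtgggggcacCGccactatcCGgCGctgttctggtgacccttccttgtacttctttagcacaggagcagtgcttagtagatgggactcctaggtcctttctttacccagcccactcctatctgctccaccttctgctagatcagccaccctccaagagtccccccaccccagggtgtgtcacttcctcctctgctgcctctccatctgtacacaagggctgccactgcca
Cdsn (chr17:35551878-35552177, plus strand): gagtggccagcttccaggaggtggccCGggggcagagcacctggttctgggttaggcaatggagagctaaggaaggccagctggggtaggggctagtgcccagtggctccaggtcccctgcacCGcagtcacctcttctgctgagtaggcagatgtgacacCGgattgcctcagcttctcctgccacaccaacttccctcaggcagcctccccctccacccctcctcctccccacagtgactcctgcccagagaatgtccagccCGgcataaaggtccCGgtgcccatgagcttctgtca
The *Alcam* window holds 25 CG dinucleotides, the *Itga1* window 12, and those of *Itgb7* and *Cdsn* 5 each. The median over the 32851 promoters of the same length is 7, with quartiles of 3 and 20. RefSeq promoters were matched by symbol for 23 of the 49 genes, in 28 windows, with a median of 13 CG dinucleotides. The GC box GGGCGG, searched on both strands, is in 14 of the 28 windows and in 35.7% of all promoters, and it occurs in the *Alcam* window but not in the other 3 shown. The TATA box TATAAA is in 1 of the 28 windows and in 13.6% of all promoters, and CCAAT in 11 of 28 and in 37.4%. These matches describe letters in the windows only.

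The adhesion receptors of the immunoglobulin superfamily were all lower in *Hdac3* KO MCECs, 5 of 5, with a median log2 fold change of -0.97. *Alcam* (ENSMUSG00000022636, chr16:52248996-52454074, minus strand), a receptor that binds its own kind on neighbouring cells and CD6 on T cells, fell furthest of the 49 genes. The 4 EV libraries held 3040.5, 2894, 2889 and 2919.7 normalized counts, whereas the KO libraries held 458, 458, 460.4 and 472. The groups were far apart and the libraries within each were close together. The level was 6.35-fold lower in KO MCECs (log2 fold change -2.67, SE 0.038, edgeR BH-adjusted p = 1.57e-34).

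*Ncam1*, a homophilic receptor best known from neurons (chr9:49504361-49798922, minus strand), stood at 1239, 1256, 1279 and 1260.3 in EV libraries and at 778, 759, 750.4 and 759 in KO libraries (log2 fold change -0.73, SE 0.039, edgeR BH-adjusted p = 3.88e-18). The 4 EV values spanned a narrow band well above all KO values. *Icam1*, an endothelial ligand of leukocyte integrins (chr9:21015960-21028797, plus strand), was a low-abundance gene with normalized counts of 101, 88.8, 129.5 and 117 in EV and 32.6, 43.00, 44.3 and 48.8 in KO libraries (log2 fold change -1.37, SE 0.15, edgeR BH-adjusted p = 4.01e-10). *Icam5*, its neighbour on chromosome 9 and known from neurons, had means of 28.3 ± 7.87 in EV and 14.7 ± 3.67 in KO MCECs (SD, n = 4), with a log2 fold change of -0.97 (SE 0.26) and groups that overlapped (exact permutation p = 0.0857, two-sided). Antisense genes cover 11.7% of *Icam1* and 30.8% of *Icam5* exonic sequence, and whether reads were counted by strand is not given in the sources used here. *Vcam1*, the endothelial ligand of the integrin pair of *Itga4* and *Itgb1*, was the most abundant of the 5 per length, at 108 FPKM in EV and 83.4 FPKM in KO MCECs. It changed least of them, from normalized counts of 6909.6 ± 67.2 to 5781 ± 108 (SD, n = 4; log2 fold change -0.26, SE 0.026). Together the 5 receptors went from 155 ± 2.01 FPKM in EV to 98.5 ± 1.498 FPKM in KO MCECs (SD, n = 4).

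**Figure D2:**
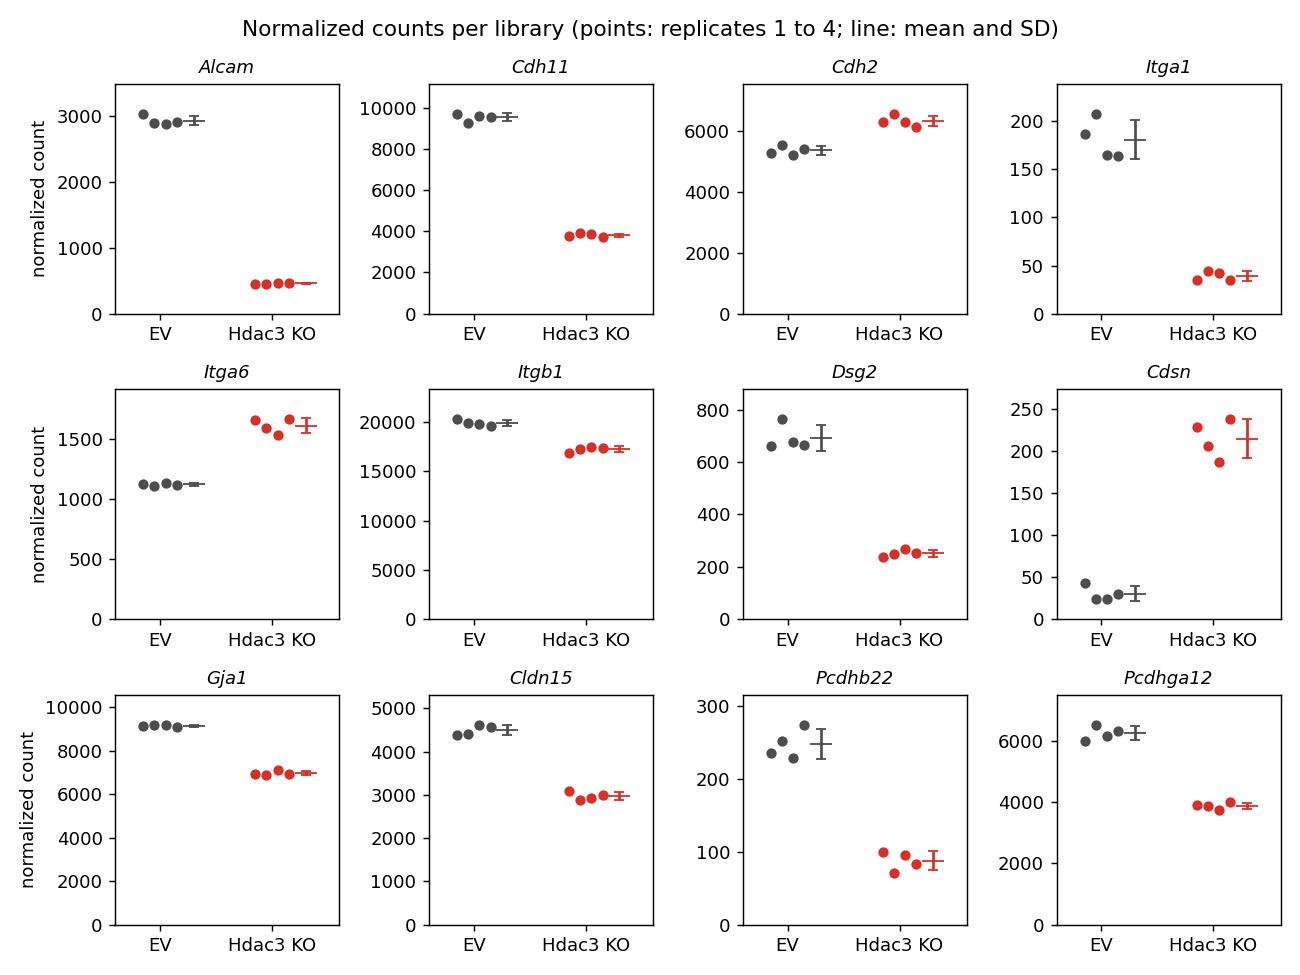
Normalized counts (y axis, from 0) of 12 of the genes in each library, 4 EV (grey) and 4 *Hdac3* KO (red) points per gene, with the mean and SD at their right. In each panel the EV and KO points do not overlap: *Alcam*, *Cdh11*, *Itga1*, *Itgb1*, *Dsg2*, *Gja1*, *Cldn15* and both protocadherin rows are lower in KO, and *Cdh2*, *Itga6* and *Cdsn* are higher. *Pcdhga12* and *Pcdhb22* are 2 of the clustered protocadherin rows.

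Among the listed integrin alpha subunits 4 were lower and 4 higher in *Hdac3* KO MCECs. The laminin-binding subunits, 3 of 3, were higher (median log2 fold change 0.52), but *Itga3* turned to -0.036 with library totals without TMM. The collagen-binding subunits, 2 of 2, were lower, and of the subunits that bind the RGD motif of fibronectin, vitronectin or fibrinogen 2 were lower and 1 higher. *Itga1* (chr13:114958079-115101964, minus strand), the alpha chain of a collagen receptor with *Itgb1*, fell furthest among the listed integrins. Its normalized counts were 186, 208, 165 and 164 in EV and 34.7, 43.9, 42.4 and 34.7 in KO libraries, so that all KO values lay far below the lowest EV value (log2 fold change -2.20, SE 0.13, edgeR BH-adjusted p = 5.98e-17). The other collagen-binding subunit, *Itga11*, had few reads, with means of 33.8 ± 6.38 in EV and 19.7 ± 6.53 in KO MCECs (SD, n = 4). Its groups overlapped (log2 fold change -0.79, SE 0.24; exact permutation p = 0.0571, two-sided), and the call was lost without EV replicate 1 (edgeR BH-adjusted p = 0.0101) or KO replicate 2 (0.0103).

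*Itga6*, the laminin receptor chain that pairs with *Itgb1* or *Itgb4* (chr2:71745616-71858416, plus strand), rose from 1123, 1105, 1132 and 1116 in EV to 1651, 1586, 1531 and 1661 in KO libraries (log2 fold change 0.52, SE 0.037, edgeR BH-adjusted p = 6.22e-15). Each KO value was above every EV value. *Itga7*, a laminin receptor chain prominent in muscle (chr10:128933813-128958277, plus strand), rose from 73.6, 96.6, 95.1 and 86.9 to 145, 139.97, 161 and 141 (log2 fold change 0.73, SE 0.11, edgeR BH-adjusted p = 3.29e-07). *Itga3* was the most abundant listed alpha subunit per length, at 111 ± 3.002 FPKM in EV and 108 ± 2.88 FPKM in KO MCECs (SD, n = 4). Its normalized counts differed by 0.081 on the log2 scale (SE 0.026), a call lost without EV replicate 1 (edgeR BH-adjusted p = 0.0318) or KO replicate 1 (0.0195).

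Of the RGD-binding chains, *Itga5*, the fibronectin receptor chain (chr15:103344289-103366763, minus strand), was at 1196, 1323, 1249.5 and 1309.95 in EV and 1688, 1536, 1587 and 1595 in KO libraries (log2 fold change 0.33, SE 0.038, edgeR BH-adjusted p = 1.34e-09). *Itgav*, which pairs with several beta subunits (chr2:83724397-83806916, plus strand), was at 7594, 8073, 7599 and 7664 in EV and 6992, 7002, 6778 and 6976 in KO libraries (log2 fold change -0.16, SE 0.026, edgeR BH-adjusted p = 1.87e-06). Thus *Itga5* was higher and *Itgav* slightly lower, in each case with no overlap of the groups. *Itga2b*, the chain of the platelet fibrinogen receptor (chr11:102453297-102470122, minus strand), was at 119.9, 96.6, 99.3 and 106 in EV and 71.5, 46.7, 46.1 and 59.1 in KO libraries (log2 fold change -0.92, SE 0.14, edgeR BH-adjusted p = 4.23e-07).

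*Itgb1*, the common partner of many alpha chains (chr8:128685654-128733200, plus strand), was the most abundant listed integrin subunit per length, with 284, 278, 276 and 273 FPKM in EV and 218, 222, 225 and 223 FPKM in KO libraries. Its normalized counts were 20316, 19970.1, 19773 and 19606 in EV and 16905, 17236, 17531 and 17411 in KO libraries (log2 fold change -0.21, SE 0.024, edgeR BH-adjusted p = 1.5e-09). The decrease was small beside that of *Itga1* but larger than the spread in either group. The other listed beta subunits were all under 2 FPKM in both groups. *Itgb3*, the partner of *Itgav* and *Itga2b* (chr11:104608000-104670476, plus strand), had normalized counts of 167, 185, 150.4 and 161 in EV and 130.5, 152, 126 and 122 in KO libraries, which overlapped (log2 fold change -0.32, SE 0.10; exact permutation p = 0.0571, two-sided). Its call was lost without EV replicate 2, KO replicate 3 or KO replicate 4 (edgeR BH-adjusted p = 0.0208, 0.012 and 0.0168). *Itgb8*, which with *Itgav* binds latent TGF-beta, had means of 69.03 ± 14.5 in EV and 38.7 ± 5.27 in KO MCECs (SD, n = 4; log2 fold change -0.84, SE 0.17). *Itgb4*, the laminin receptor chain of hemidesmosomes, had means of 40.4 ± 10.4 in EV and 71.3 ± 2.67 in KO MCECs (log2 fold change 0.79, SE 0.16), and *Itgb7*, a leukocyte chain, of 18.3 ± 5.23 in EV and 49.9 ± 7.18 in KO MCECs (log2 fold change 1.43, SE 0.21). *Itgb3bp* matched the rule by name only, since it encodes a centromere protein. Its counts were 329.9, 308, 314 and 327 in EV and 236, 219, 306 and 278 in KO libraries (log2 fold change -0.30, SE 0.082), and its call was lost without KO replicate 2 (edgeR BH-adjusted p = 0.0117).

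**Figure D3:**
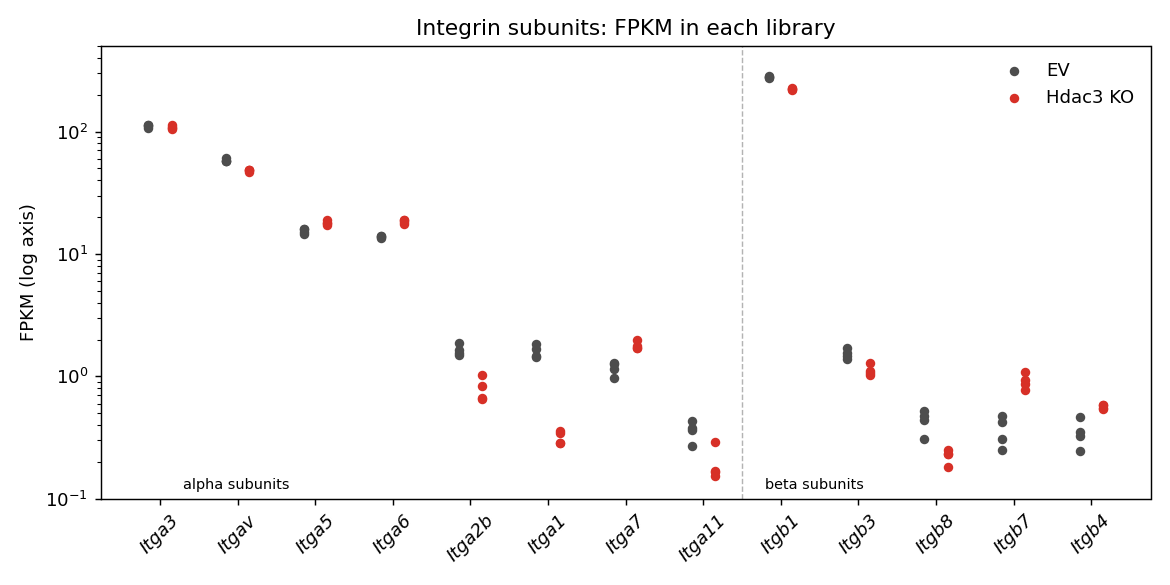
FPKM (y axis, log axis) of the 13 listed integrin subunits in each EV (grey) and *Hdac3* KO (red) library, alpha subunits left of the dashed line and beta subunits right of it, each ordered by their EV mean. *Itgb1*, *Itga3* and *Itgav* lie above all others in both groups, at 278, 111 and 58.3 FPKM in EV MCECs, and *Itga1* shows the widest gap between the groups.

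Per length, the order of the listed alpha subunits in EV MCECs was *Itga3*, *Itgav*, *Itga5*, *Itga6*, *Itga2b*, *Itga1*, *Itga7* and *Itga11*. *Itga5* was at 15.4 ± 0.654 FPKM and *Itga6* at 13.8 ± 0.186 FPKM in EV MCECs, and at 17.9 ± 0.712 and 18.3 ± 0.678 FPKM in KO MCECs (SD, n = 4), so that they were within their spread of each other in KO. *Itga2b* and *Itga1* were likewise within their spread in EV MCECs, at 1.63 ± 0.165 and 1.61 ± 0.182 FPKM, and apart in KO MCECs, at 0.797 ± 0.172 and 0.319 ± 0.0406 FPKM. FPKM is scaled to the library total and not by TMM, so these levels carry the shift given above. The 13 subunits together came to 484 ± 4.75 FPKM in EV and 421 ± 1.95 FPKM in KO MCECs (SD, n = 4).

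Of the cadherins outside the protocadherins, 2 of 3 were lower. *Cdh11*, the cadherin of mesenchymal cells (chr8:102632995-102785111, minus strand), had normalized counts of 9709, 9275, 9611 and 9556 in EV and 3765, 3906, 3843 and 3738 in KO libraries (log2 fold change -1.32, SE 0.027, edgeR BH-adjusted p = 1.65e-30). *Cdh2*, or N-cadherin, the classical cadherin that endothelial cells share with mural cells and cardiomyocytes (chr18:16588877-16809246, minus strand), had 5286, 5537, 5198 and 5408 in EV and 6293, 6564, 6288 and 6139 in KO libraries (log2 fold change 0.24, SE 0.028, edgeR BH-adjusted p = 1.29e-09). The 2 abundant classical cadherins thus moved in opposite directions. Per length, *Cdh11* went from 120.4 ± 2.71 to 44.4 ± 0.949 FPKM and *Cdh2* from 58.9 ± 1.44 to 64.01 ± 1.89 FPKM (SD, n = 4), so that *Cdh11* was above *Cdh2* in EV and below it in KO MCECs. *Cdh23*, the long cadherin of sensory hair cell tip links, had few reads, with means of 49.99 ± 4.79 in EV and 26.3 ± 6.22 in KO MCECs (log2 fold change -0.94, SE 0.19). Of the 5 mesenchymal markers present, *Pdgfra* (log2 fold change -1.42), *Dcn* (-1.21), *Col3a1* (-0.26) and *Thy1* (-0.13) were lower in KO MCECs and *Col1a1* (0.23) was higher, and their relation to *Cdh11* was not tested.

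Among desmosome genes the desmosomal cadherin *Dsg2* (chr18:20558074-20604521, plus strand) was lower, at 659.8, 764, 678 and 666 in EV and 238, 248, 267 and 252 in KO libraries (log2 fold change -1.46, SE 0.062, edgeR BH-adjusted p = 4.75e-21). The plakophilin *Pkp2*, which links desmosomal cadherins to desmoplakin (chr16:16213318-16272712, plus strand), was lower as well, at 933, 849.6, 909 and 835 in EV and 496, 585, 517 and 507 in KO libraries (log2 fold change -0.74, SE 0.053, edgeR BH-adjusted p = 8.29e-15). In both genes every KO library was under every EV library. *Pkp1*, the plakophilin of stratified epithelia, was sparse, with means of 11.4 ± 1.37 in EV and 22.1 ± 7.97 in KO MCECs (SD, n = 4; log2 fold change 0.95, SE 0.30), and its call was lost without EV replicate 1, KO replicate 3 or KO replicate 4 (edgeR BH-adjusted p = 0.0105, 0.0183 and 0.0174). *Cdsn* (ENSMUSG00000039518, chr17:35552128-35557180, plus strand), corneodesmosin of the cornified skin layer, was far higher in KO MCECs. Its normalized counts were 42.7, 24.4, 24.03 and 30.2 in EV and 228, 206, 187 and 238 in KO libraries, a 7.12-fold increase (log2 fold change 2.83, SE 0.14, edgeR BH-adjusted p = 4.52e-19). Per length it reached 3.94 ± 0.414 FPKM in KO MCECs (SD, n = 4), below the 8.803 FPKM of *Pkp2*.

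Of the tight junction genes 3 were lower and 4 higher. *Cldn15*, a claudin that forms cation pores (chr5:136966616-136975858, plus strand), was the listed claudin with the highest FPKM. It had normalized counts of 4377, 4408, 4622 and 4562 in EV and 3088, 2889.9, 2936 and 2989.9 in KO libraries (log2 fold change -0.60, SE 0.029, edgeR BH-adjusted p = 2.19e-19). *Cldn12* (chr5:5505015-5514958, minus strand) had 1295, 1286, 1276 and 1236 in EV and 1494, 1436, 1564 and 1592 in KO libraries (log2 fold change 0.26, SE 0.038, edgeR BH-adjusted p = 1.48e-07). The first of these was lower and the second higher, with no overlap. *Cldn9* was near the limit of detection, with raw counts of 2, 1, 0 and 1 in EV and 12, 9, 6 and 13 in KO libraries. The ratio of its summed counts, corrected for library size, was 9.17 with a 95% exact interval of 3.32 to 35.3, which covers counting error only. The row named *Cldn25* (chr16:58727910-58734251, plus strand) carries the identifier ENSMUSG00000022744, which GENCODE M21 names *Cldnd1*, a gene of a claudin domain protein. It was at 1848, 1817, 1772 and 1797 in EV and 2029, 1923, 2049.8 and 1942 in KO libraries (log2 fold change 0.14, SE 0.033), and was not called with library totals without TMM.

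*Tjp3*, a zonula occludens scaffold of epithelia, had means of 68.7 ± 8.84 in EV and 46.9 ± 7.697 in KO MCECs (SD, n = 4; log2 fold change -0.55, SE 0.16), and its call was lost without EV replicate 4 (edgeR BH-adjusted p = 0.0139). *F11r*, or JAM-A (chr1:171437535-171464603, plus strand), was the most abundant of the 49 genes per length, at 297 ± 2.31 FPKM in EV and 291 ± 8.35 FPKM in KO MCECs (SD, n = 4). Its normalized counts of 14055, 13924, 14020.4 and 14161 in EV and 15173, 14711, 15433 and 14532 in KO libraries gave a log2 fold change of 0.092 (SE 0.025), which turned to -0.026 with library totals without TMM.

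Among the connexins *Gja1*, the major cardiovascular one (chr10:56377300-56390419, plus strand), was abundant per length (157 FPKM in EV and 110.2 FPKM in KO MCECs). Its normalized counts were 9128, 9185, 9203 and 9099.6 in EV and 6928, 6906, 7122 and 6945 in KO libraries (log2 fold change -0.39, SE 0.025, edgeR BH-adjusted p = 2.46e-16). Each KO library was below every EV library. *Gjc1*, a connexin of smooth muscle and the conduction system (chr11:102799579-102819700, minus strand), was at 351, 419, 339.5 and 381 in EV and 298, 298, 326 and 340.3 in KO libraries. Its groups overlapped (log2 fold change -0.24, SE 0.071; exact permutation p = 0.0571, two-sided), and its call was lost without EV replicate 2 or KO replicate 2 (edgeR BH-adjusted p = 0.0179 and 0.0109).

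The protocadherins of the beta and gamma clusters on chromosome 18 were all lower, 9 of 9 rows, with a median log2 fold change of -1.51. In these clusters many single-exon or first-exon genes lie side by side and each neuron or cell uses a few of them, which gives cells an adhesive identity. The 8 *Pcdhb* genes lay between -1.70 (*Pcdhb20*) and -1.23 (*Pcdhb18*). *Pcdhb22* (chr18:37518353-37521419, plus strand) had normalized counts of 235, 252, 229 and 274 in EV and 99.95, 71.4, 96.04 and 82.5 in KO libraries (log2 fold change -1.51, SE 0.10, edgeR BH-adjusted p = 3.02e-15). *Pcdhb21* (chr18:37513652-37518313, plus strand) had 134, 121, 101 and 125 in EV and 39.98, 41.2, 37.7 and 40.3 in KO libraries (log2 fold change -1.59, SE 0.14, edgeR BH-adjusted p = 1.52e-12). *Pcdhb16* (chr18:37477768-37483035, plus strand) had 106, 102, 109 and 116 in EV and 30.5, 51.2, 43.3 and 26.3 in KO libraries (log2 fold change -1.51, SE 0.16, edgeR BH-adjusted p = 1.2e-10). In all 3 the KO libraries lay well below the EV libraries.

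The other *Pcdhb* genes behaved alike. *Pcdhb18* had means of 191 ± 15.7 in EV and 82.1 ± 8.62 in KO MCECs, *Pcdhb17* of 136 ± 13.7 in EV and 56.4 ± 7.12 in KO MCECs and *Pcdhb20* of 81.9 ± 9.91 in EV and 24.96 ± 7.61 in KO MCECs (SD, n = 4; log2 fold changes -1.23, -1.27 and -1.70). *Pcdhb19* had means of 43.02 ± 4.52 in EV and 13.6 ± 0.897 in KO MCECs and *Pcdhb14* of 14.8 ± 2.89 in EV and 5.48 ± 1.48 in KO MCECs (log2 fold changes -1.65 and -1.39). Between 2.02% and 11.3% of the 50-base windows of their transcripts occur in transcripts of other genes. The gene sharing most windows was another *Pcdhb* gene, except for *Pcdhb14*. *Pcdhb21* and *Pcdhb22* also overlap on the same strand, over 9.67% and 6.88% of their exonic bases. Reads of shared windows may be split between genes. The summed level of the *Pcdhb* genes was 12.8 ± 0.501 FPKM in EV and 4.35 ± 0.116 FPKM in KO MCECs (SD, n = 4).

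The row named *Pcdhga12* (chr18:37674335-37841873, plus strand) spans the gamma cluster and carries the identifier ENSMUSG00000023036, which GENCODE M21 names *Pcdhgc4*. Of the exonic bases of that gene 37.9% are shared with other genes of the cluster, so the row cannot be assigned to 1 gamma isoform. It was abundant, at 65.4 ± 2.15 FPKM in EV and 37.5 ± 0.909 FPKM in KO MCECs (SD, n = 4). Its normalized counts, shown per library although it lies outside the rule for such values and was chosen after they were seen, were 6006, 6532, 6148 and 6309 in EV and 3908, 3859.6, 3759 and 3995 in KO libraries (log2 fold change -0.69, SE 0.029, edgeR BH-adjusted p = 2.59e-21).

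The clusters lie beside *Hdac3*, the gene targeted by the guide (chr18:37935844-37954988, minus strand). The 9 rows were 94.0 to 485 kb from it, on the side of the lower coordinates. Within 1 Mb of *Hdac3* the table held 3 other genes, *1700086O06Rik*, *0610009O20Rik* and *Ndfip1*, with log2 fold changes of -0.47, -0.17 and -0.38, all called lower. Within 2 Mb it held 16 other genes, of which 10 were lower, 5 higher and 1 not called, with a median of -0.15. Of the 227 listed genes of chromosome 18, 126 were lower and 97 higher, with a median of -0.20. Without the 9 rows, 25 of the remaining 40 adhesion and junction genes were lower and 15 higher, with a median of -0.31. Whether the position beside the edited gene bears on the counts was not tested.

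**Figure D4:**
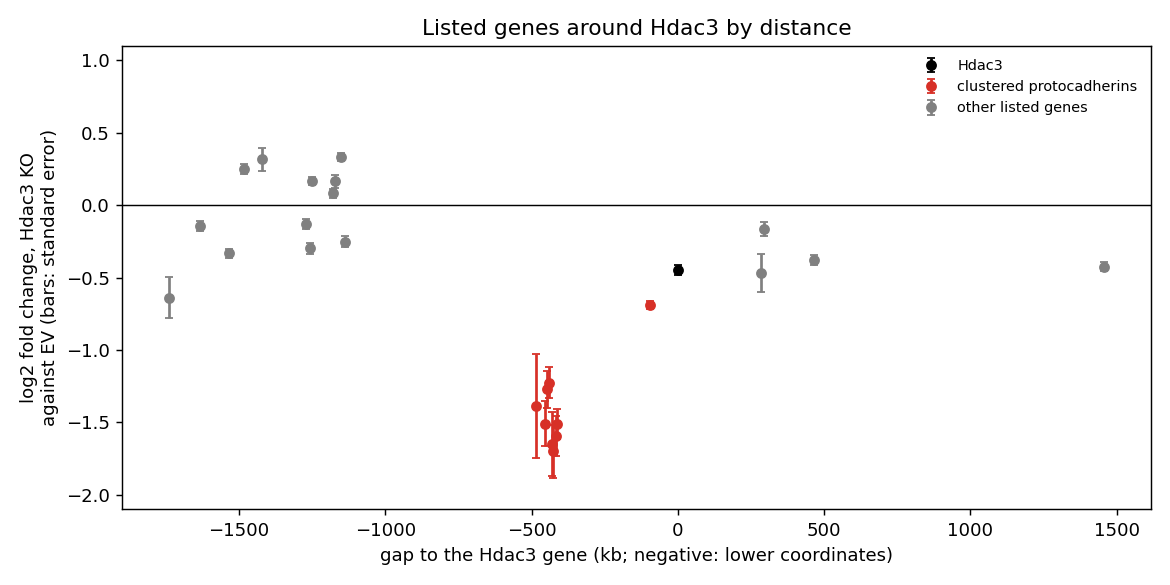
Log2 fold change in *Hdac3* KO against EV MCECs (y axis, log2 scale; bars are the standard error) of the listed genes within 2 Mb of *Hdac3*, by the gap to the *Hdac3* gene in kb (x axis). The 9 clustered protocadherin rows (red) lie between -1.70 and -0.69, below *Hdac3* at -0.45 (black), and the 16 other genes (grey) lie between -0.64 and 0.33.

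Of the protocadherins outside the clusters 3 of 4 were lower. *Pcdh19* (chrX:133582863-133688993, minus strand), which works with N-cadherin in neurons, had 108, 118, 90.9 and 115 in EV and 146, 144, 127 and 159 in KO libraries (log2 fold change 0.41, SE 0.11, edgeR BH-adjusted p = 0.000738), and was not called with library totals without TMM. *Pcdh18* had means of 335 ± 16.1 in EV and 174 ± 21.5 in KO MCECs (log2 fold change -0.95, SE 0.082), and *Pcdh11x* of 61.8 ± 10.7 in EV and 39.00 ± 6.75 in KO MCECs (log2 fold change -0.65, SE 0.17). *Pcdh7* was the most abundant of them per length, at 26.7 FPKM in EV and 17.5 FPKM in KO MCECs, with normalized counts of 2819 ± 76.02 in EV and 2007 ± 45.1 in KO MCECs (SD, n = 4; log2 fold change -0.49, SE 0.031). An antisense gene covers 21.1% of its exonic sequence.

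Genes that work with these proteins were taken from 5 lists of 136 genes, of which 78 were in the table. Among them 41 were lower and 37 higher, with a median log2 fold change of -0.16. With library totals without TMM the split was 41 lower and 26 higher. Of the cadherin-catenin partners 7 of 11 were lower and 4 higher. *Ctnna1*, the catenin that ties cadherins to actin, was higher (12551 ± 209.8 in EV and 17154 ± 326 in KO MCECs; log2 fold change 0.45), as were *Vezt* at 0.42 and *Ajuba* at 0.35. *Ptprb*, the endothelial phosphatase that acts on VE-cadherin, was lower (801 ± 49.02 in EV and 383 ± 20.8 in KO MCECs; log2 fold change -1.06), as were *Ctnnal1* at -0.998 and the actin-binding *Lima1* at -0.75.

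Of the integrin partners, 12 of 29 were lower and 17 higher (median log2 fold change 0.13). They include adaptors that link integrins to actin and signalling, and membrane proteins such as *Cd47*. *Actn1*, the actin crosslinker of focal adhesions, was higher (6645 ± 135 in EV and 13499 ± 375 in KO MCECs; log2 fold change 1.02), and so was the docking protein *Bcar1* at 0.46. The kinase *Ptk2b* was lower (466 ± 22.2 in EV and 232 ± 12.6 in KO MCECs; log2 fold change -1.002), and so were *Nedd9* at -0.72 and *Cd47* at -0.70. Of the tight junction and polarity partners 12 of 19 were lower and 7 higher, with *Ybx3* (0.91), *Pard6b* (0.60) and *Cxadr* (0.48) at the upper end and *Bves* (-1.03), *Prkcz* (-0.67) and *Cgnl1* (-0.56) at the lower end.

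Of the other cadherin superfamily 3 of 6 were lower, with log2 fold changes of -0.78 for *Fat4*, -0.63 for *Clstn1* and -0.55 for *Celsr1*, and 3 were higher. *Cdhr1*, a photoreceptor cadherin, rose most of them (35.5 ± 6.61 in EV and 118 ± 13.5 in KO MCECs; log2 fold change 1.72). Among other endothelial adhesion receptors 7 of 13 were lower and 6 higher. *Cd44*, the hyaluronan receptor, was higher (1253 ± 23.4 in EV and 2722 ± 194 in KO MCECs; log2 fold change 1.12), with *Mcam* at 0.69 and *Pvr* at 0.68. *Cd200* fell furthest of the named partner genes (157 ± 17.8 in EV and 39.9 ± 5.96 in KO MCECs; log2 fold change -1.97), with the leukocyte-capturing P-selectin gene *Selp* at -0.81 and *Cadm4* at -0.71.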

How the data were processed

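Bulk RNA-Seq was analysed in 4 *Hdac3* KO and 4 EV MCEC samples, grouped by their titles. The authors' provider sequenced the libraries on the Illumina platform, and reads were aligned to mm10 with tophat2 and bowtie2; the submitters' processing notes also name CASAVA and DESeq 1.6.3. The deposited counts are unnormalized read counts of each gene. The program and annotation that assigned reads to genes, and any use of strand, are not given in the sources used here. The deposited FPKM values divide the count by gene length and library total. The authors' deposited log2 fold changes and p-values were not used as results. The adjusted p-value of every one of the 8278 genes is under 0.05 in the authors' comparison, so the table is a selection on the same contrast.

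Library totals, recovered from count, length and FPKM, were 15775327 to 22255684 reads, of which the table holds 84.3% to 85.9%. Genes were tested with edgeR 4.0.16 (quasi-likelihood test, totals times TMM factors, Benjamini-Hochberg (BH) adjustment over 8278 genes, cut-off 0.01) in R 4.3.3, without a filter on low counts; the common coefficient of variation was 2.82%. The script was tested on simulated data in which 200 genes were changed. Single genes were also compared by a two-sided exact permutation test. The replicate numbers of the titles did not pair the samples (mean correlation of same-numbered deviations -0.02), so the fit has no block. Intervals cover counting error only.

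The genes, the partner and marker lists and the naming rule were chosen with earlier results of these data known. Values per library are given for up to 3 lowest and 3 highest genes of each family with a mean of at least 100 in the higher group. The lists of partner genes gave the 3 lowest and 3 highest by the same minimum. Values of some single genes are not reported here. Gene positions are as deposited, overlaps come from GENCODE M21 and promoters from RefSeq (GRCm38.p6). Alternatives were DESeq2 1.42.0, its size factors, library totals without TMM, column sums, a count minimum of 10 in 4 libraries, a replicate block, adjustment over 30000 genes, a cut-off of 0.05, and leaving out each library.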

Additional observations from a re-analysis of the deposited data

Results flagged for a closer look

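In groups of 4 libraries, 4 of 100 gene groups held a library that stood apart by Dixon's test, where chance gives about 5. *Icam5* was at 16.6 normalized counts in EV replicate 1 and at 31.0 to 33.3 in the other EV libraries (gap over range 0.864); its log2 fold change was -1.13 without that library and -0.97 with it. *Itga11* was at 29.5 in KO replicate 1 and at 15.6 to 16.9 in the other KO libraries (0.900); without it the log2 fold change was -1.02, against -0.79. *Itgav* was at 8073 in EV replicate 2, above 7594 to 7664 in the others (0.854), and at 6778 in KO replicate 3, below 6976 to 7002 in the others (0.885). Its log2 fold change was -0.14 without either of these libraries in turn, against -0.16.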

How the results depend on the processing

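The counts of 34 lower and 15 higher genes were the same under DESeq2, under its size factors, with column sums of the table as library sizes, with a cut-off of 0.05 and with the replicate block. The replicate block changed no call among the 49 genes. In that fit 4106 listed genes were lower and 3866 higher, 41 partner genes were lower and 36 higher, and the log2 fold change of *Hdac3* was -0.45. No pairing was found: 1 of the 4 KO libraries correlated best with the EV library of its own number. With a minimum of 10 counts in 4 libraries 48 genes remained, 34 lower and 14 higher, *Cldn9* being left out. Library totals without TMM gave 34 lower and 10 higher. They reversed *Itga3* (-0.036) and *F11r* (-0.026), and *Pkp1*, *Pcdh19* and *Cldn25* kept their direction at 0.83, 0.30 and 0.018 without passing the cut-off. Adjustment over 30000 genes left 33 lower and 13 higher, with *Pkp1*, *Itga3* and *Itgb3* no longer called. Leaving out each library in turn gave 31 to 34 lower and 13 to 15 higher genes, 3955 to 4024 lower and 3634 to 3806 higher genes in the whole table, 39 to 41 lower and 34 to 36 higher partner genes, and log2 fold changes of *Hdac3* from -0.47 to -0.42. The genes whose call was lost in these fits were *Pkp1*, *Itga11*, *Itga3*, *Gjc1*, *Itgb3*, *Tjp3* and *Itgb3bp*, and none turned direction. The cause was not tested. *Cldn9*, *Pcdhb14* and *Pkp1* had the fewest reads of the 49 genes.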
